A study of Mus musculus with 8 samples.

Results

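The genes of the MCM helicase family and Pcna were followed through meiotic prophase in WT and Cnot4-null mouse spermatocytes. The 10 genes, Mcm2 to Mcm10 and Pcna, were taken by their symbols as genes of DNA replication in premeiotic S phase and, for Mcm8 and Mcm9, of meiosis. All 10 were among the 23235 gene symbols with a value in each library, and all 10 were among the 15899 symbols that passed a filter on low values. MCM2 to MCM7 form the ring that is loaded on replication origins as an inactive helicase and that unwinds DNA once it is activated in S phase. MCM10 takes part in that activation, PCNA is the sliding clamp that holds DNA polymerases on the template, and MCM8 and MCM9 form a separate helicase that acts in homologous recombination. Germ cells replicate their DNA for the last time before leptotene, and the cells studied here had therefore passed S phase if sorted as labelled.

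RNA-seq was performed on spermatocytes of male C57BL/6 mice aged 6 weeks, sorted by flow cytometry on Hoechst and propidium iodide staining into leptotene and zygotene cells (LZ) and pachytene and diplotene cells (PD). There were 8 libraries from 500 cells per sample, 2 for each genotype (WT or Cnot4-null, null in lists of values) at each stage. Cnot4-null cells came from Cnot4 fl/fl;Stra8-Cre males, in which Cre under the Stra8 promoter removes exon 2 of Cnot4 and shifts the reading frame in male germ cells from around meiotic entry. The labels call the controls Cnot4-WT and name no floxed allele or transgene in them. The methods call the duplicates biological replicates and do not say which animals each came from, so the p-values measure the spread between these libraries. With 2 libraries against 2, an exact permutation test could not give a p below 0.333, and all tests therefore come from limma, fitted to log2(FPKM + 1) of all 15899 genes. A gene was called where the adjusted p was under 0.05.

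The values are FPKM, fragment counts scaled to the length of the transcript and to the mapped reads of the library, so that levels can be set side by side between genes. A log2 change on the scale of FPKM + 1 understates the change of a gene with low values. The values hold no read counts. The libraries of Cnot4-null PD stood apart from the other 6. In them 13887 and 14249 genes exceeded 1 FPKM, while this number was 10103 and 10076 for WT PD and 11538 to 11823 for the LZ libraries. Spearman's rho between duplicates was 0.892 for Cnot4-null PD, below 0.941 (WT LZ), 0.947 (null LZ) and 0.968 (WT PD).

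Cnot4 itself was measured at 36.0 and 34.9 FPKM (WT LZ), 43.2 and 34.6 (null LZ), 76.6 and 73.1 (WT PD), 65.9 and 53.5 (null PD). The genotypes overlapped at LZ, and at PD both Cnot4-null libraries lay below both WT libraries, as in 23.1% of all genes. The log2 change at PD was -0.33 (SE 0.20, limma adjusted p = 0.192) and was not called. Cnot4 has 1 value per library for the whole gene, of which exon 2 is a small stretch, so its level cannot check the genotype.

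Markers of the labelled stages and of other testis cells were examined next. Genes of pachytene and diplotene summed to 228 and 325 FPKM (WT LZ), 236 and 87.9 (null LZ), 11749 and 10883 (WT PD), 5304 and 1822 (null PD), with the testis lactate dehydrogenase gene Ldhc the most abundant at 10595 and 9725 (WT PD) or 4585 and 1474 (null PD). Both PD groups lay above both LZ groups, and 0 of these 7 genes were called higher and 2 lower in Cnot4-null PD than in WT PD, where 41.6% of all tested genes were called higher and 11.5% lower. The 6 genes of leptotene and zygotene summed to 916 and 1257 (WT LZ), 2246 and 1203 (null LZ), 1122 and 1177 (WT PD), 655 and 380 (null PD), and Sycp3, of the synaptonemal complex, led them with 650 and 906 in WT LZ and 785 and 799 in WT PD. This sum, carried by Sycp3, did not separate the stages in WT, and 2 of the 6 genes were called higher and 3 lower in Cnot4-null PD. Other genes of the list, singled out after their values were seen, did separate them, in opposite directions. From WT LZ to WT PD the mean went from 83.6 to 0.875 for Dmc1 and from 21.8 to 0.426 for Prdm9, but from 22.3 to 140 for Spo11. In Cnot4-null PD the mean was 8.90 for Dmc1 and 2.62 for Prdm9, both above WT PD, and 45.9 for Spo11, below WT PD.

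Genes of spermatogonia and premeiotic germ cells separated the stages. The 7 genes summed to 1060 and 996 FPKM (WT LZ), 1104 and 1014 (null LZ), 24.2 and 15.7 (WT PD), 552 and 589 (null PD), and 7 of 7 were called higher in Cnot4-null PD than in WT PD. Their most abundant gene, Stra8, which responds to retinoic acid at meiotic entry, stood at 330 and 293 (WT LZ), 614 and 355 (null LZ), 8.70 and 6.47 (WT PD), 228 and 149 (null PD). The 5 proliferation genes summed to 506 and 467, 613 and 532, 172 and 165, and 223 and 199 in the same order of groups, with Ccnb1, a mitotic cyclin gene, at 49.8 and 45.4 (WT PD) or 111 and 88.4 (null PD). Of these 5, 2 were called higher and 1 lower in Cnot4-null PD, beside 41.6% and 11.5% of all genes.

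Transcripts of other testis cells were also high in Cnot4-null PD. The 5 spermatid genes summed to 1825 and 1493 FPKM (WT LZ), 4025 and 701 (null LZ), 397 and 248 (WT PD), 15665 and 7045 (null PD), where the protamine gene Prm1 reached 7592 and 2949. Of these genes 5 of 5 were called higher, beside 41.6% of all genes. The 5 Leydig cell genes summed to 16.8 and 9.89 (WT LZ), 10.8 and 19.0 (null LZ), 115 and 7.07 (WT PD), 10017 and 22195 (null PD), where the hormone gene Insl3 stood at 9669 and 21608. Of these genes 5 of 5 were called higher, beside 41.6% of all genes. Hsd3b1, at 89.7 and 216 in Cnot4-null PD, passed the filter only through that group, so its call was partly set by the filter. The sort was meant to leave these cells out.

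Sertoli cell, macrophage, and peritubular and endothelial genes were lower in level. The 6 listed Sertoli cell genes summed to 65.7 and 58.9 FPKM (WT LZ), 6.62 and 10.1 (null LZ), 8.83 and 16.5 (WT PD), 99.9 and 205 (null PD), almost all of it Clu at 94.6 and 196 in the last group, while Amh was listed at 0 in both libraries of the other 3 groups, and 3 of 5 tested were called higher in Cnot4-null PD, beside 41.6% of all genes. The 5 macrophage genes summed to 24.8 and 0.915, 5.93 and 1.65, 1.70 and 1.46, and 17.2 and 84.9 in the same order, with Lyz2 at 11.1 and 40.8 in Cnot4-null PD and no C1qa in either WT PD library (0 FPKM), and 3 of 5 were called higher, beside the same 41.6%. The 5 peritubular and endothelial genes summed to 1.06 and 1.12, 1.45 and 1.56, 1.30 and 1.16, and 49.1 and 243, with Acta2 at 42.8 and 209 in Cnot4-null PD and Pecam1 at 0 throughout WT LZ. Of those tested, 4 of 4 were called higher, beside 41.6% of all genes. Gata4, Csf1r, Adgre1, Myh11 and Cdh5 passed the filter only through Cnot4-null PD, where they were high, so the counts of these 3 lists are partly set by the filter. In the plot of summed markers, the libraries of Cnot4-null PD lie to the right of WT PD for each list except the 2 of meiotic prophase. In a bulk sample, more cells of a type and more RNA per cell cannot be told apart, and the part of these cells in the results for the MCM genes and Pcna was not tested.

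**Figure D1:**
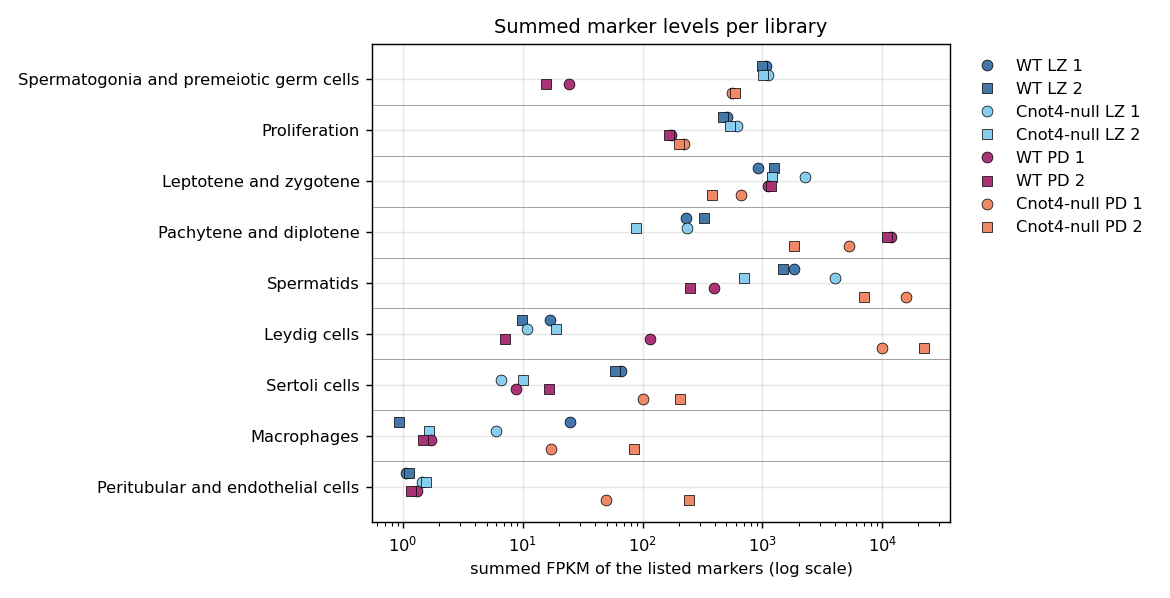
Summed FPKM of each marker list in each library, on a log axis; colours mark the 4 groups, circles replicate 1 and squares replicate 2. The 7 premeiotic genes sum to 24.2 and 15.7 in WT PD and to 552 and 589 in Cnot4-null PD.

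The helicase core comes first. On the mm9 assembly, Mcm2 lies at chr6:88833469-88848774 and Mcm3 at chr1:20793055-20810359, Mcm4 at chr16:15623990-15637493 and Mcm6 at chr1:130228168-130256233, all on the minus strand. Mcm5 lies at chr8:77633427-77652338 on the plus strand, and Mcm7 at chr5:138605811-138613650 on the minus strand. The members of the ring are thus spread over 5 chromosomes. Their promoters were read for a motif known from S-phase genes, that of the E2F transcription factors. RefSeq promoters on GRCm38.p6, from 250 bases before to 50 after each start, were searched on both strands for the 8-letter forms TTTGGCGC, TTTCCCGC and TTTCGCGC. Mcm4 had no entry, and 9 of the 10 genes were matched. Of those 9, Mcm3, Mcm5, Mcm6, Mcm7 and Mcm8 held at least 1 form, 5 of 9, against 573 of 27025 genes, or 2.12%, and 606 of all 32851 promoters, or 1.84%. The windows are shown because they are the sequence behind these counts, with the matched letters in capitals, 5′ to 3′ on the strand of the gene. Those of Mcm3 lie at chr1:20820276-20820303 and chr1:20820263-20820284 on the minus strand, with matches 19 and 38 bases after the start. Mcm5 was matched at chr8:75109336-75109387 on the plus strand, 153 bases before the start. Mcm6 has windows at chr1:128359784-128359835 and chr1:128359725-128359772 on the minus strand, 110 and 47 bases before the start. Mcm7 has windows at chr5:138172021-138172068, 165 bases before the start, and chr5:138171850-138171877, 16 bases after it, both on the minus strand. In Mcm8 the window is chr2:132816170-132816190 on the plus strand, with the match 39 bases after the start.
Mcm3, first window: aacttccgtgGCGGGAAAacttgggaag
Mcm3, last window: cttgggaagtTTTGGCGCcaag
Mcm5: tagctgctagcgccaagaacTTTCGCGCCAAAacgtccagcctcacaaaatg
Mcm6, first window: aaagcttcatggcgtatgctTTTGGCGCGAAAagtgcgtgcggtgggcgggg
Mcm6, last window: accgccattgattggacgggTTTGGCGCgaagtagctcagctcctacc
Mcm7, first window: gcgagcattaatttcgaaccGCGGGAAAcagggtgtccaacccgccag
Mcm7, last window: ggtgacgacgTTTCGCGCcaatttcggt
Mcm8: cgtcatagacGCGCCAAAaaa
In Mcm5 and in the first window of Mcm6 the 12 capitals are 2 overlapping matches, 1 on each strand. The 2 windows of Mcm3 overlap by their flanks.

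Among the genes of the replication lists described further on, 21 of the 55 matched, or 38.2%, held an 8-letter form. No form was found in the promoters of Mcm2, Mcm9, Mcm10 and Pcna or in the other promoter listed for Mcm7, which says only that these letters are not in those windows. The shorter forms TTGGCG, or TTCCCG, or TTCGCG, each contained in its 8-letter form, were in 7 of the 9 genes, with Mcm10 and Pcna added, in 23.5% of all genes and in 40 of the 55 list genes, or 72.7%. A match is a description of the sequence and not a site of binding, and no binding was measured.

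In the LZ libraries the 6 core genes were expressed at similar levels. Mcm2 was measured at 58.4 and 46.4 FPKM (WT LZ), 50.9 and 49.3 (null LZ), 0.526 and 0.815 (WT PD), 19.4 and 19.3 (null PD). Mcm3 was at 69.9 and 64.5 (WT LZ), 75.4 and 70.9 (null LZ), 1.72 and 1.92 (WT PD), 22.4 and 18.9 (null PD). Mcm5, which closes the ring next to Mcm2, was at 43.0 and 54.2 (WT LZ), 50.7 and 47.7 (null LZ), 1.03 and 1.02 (WT PD), 12.1 and 16.7 (null PD). In each of these 3 genes the LZ libraries were highest, the Cnot4-null PD libraries intermediate and the WT PD libraries lowest, with no overlap between PD groups or between stages. Over all genes, 81.3% did not overlap between the genotypes at PD, 81.2% between the stages in WT and 71.4% between the stages in Cnot4-null.

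The subunits Mcm4, Mcm6 and Mcm7 form the part of the ring with helicase activity in vitro. Mcm4 was measured at 36.6 and 43.4 FPKM (WT LZ), 31.1 and 35.3 (null LZ), 0.530 and 0.866 (WT PD), 9.39 and 12 (null PD). Mcm6 stood at 81.4 and 76.8 (WT LZ), 76.4 and 62.7 (null LZ), 9.26 and 8.70 (WT PD), 24.4 and 20.6 (null PD). Mcm7 stood at 80.7 and 61.1 (WT LZ), 80.1 and 76.1 (null LZ), 42.0 and 39.2 (WT PD), 74.2 and 51.1 (null PD). Mcm4 followed Mcm2, Mcm6 kept a higher level in WT PD, and Mcm7 was the most abundant of the 6 in all 4 PD libraries. The genotypes did not overlap at PD in any of the 3, as in 81.3% of all genes, and the order of group means was the same as for Mcm2 in Mcm4 and Mcm6. For Mcm7 the LZ groups overlapped each other, and the higher Cnot4-null PD library lay within the range of WT LZ.

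**Figure D2:**
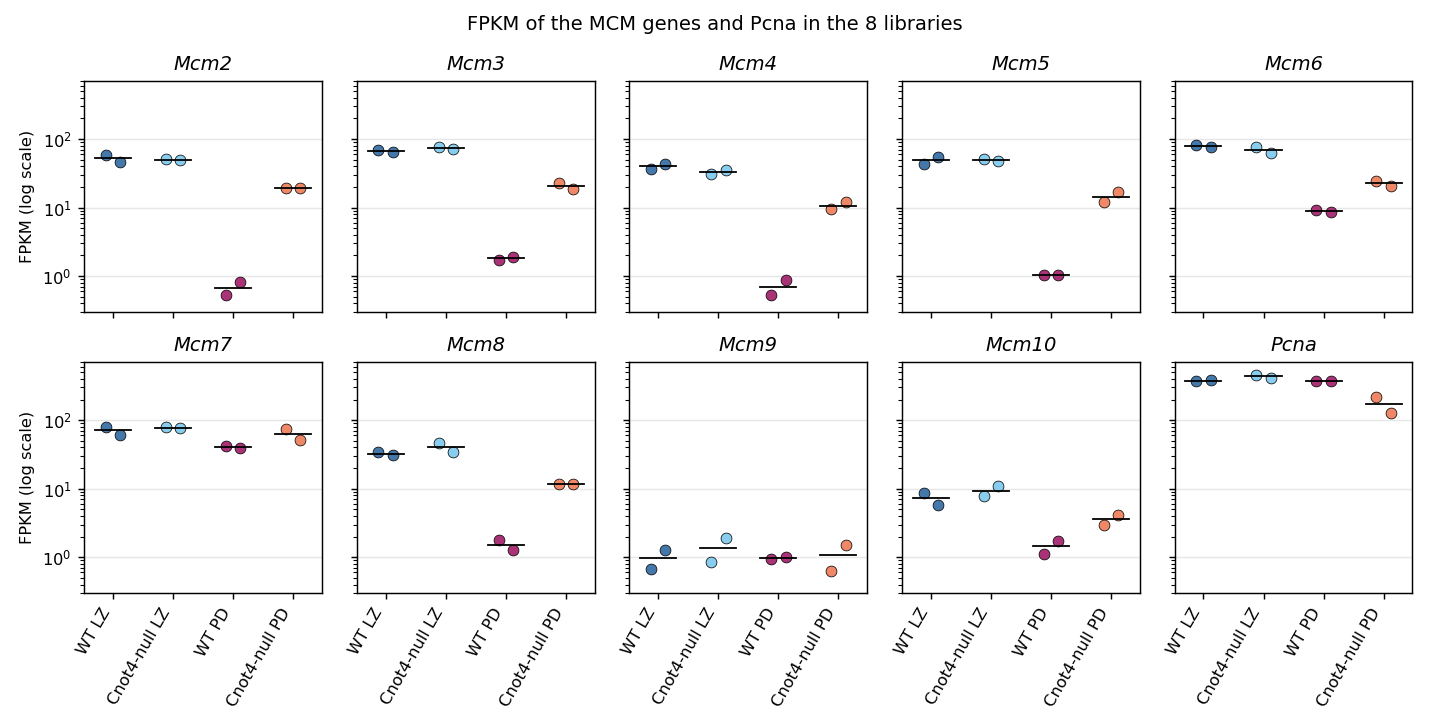
FPKM of each gene in the 8 libraries, on a log axis; points are libraries and black lines the group means. Mcm2 lies at 0.526 and 0.815 (WT PD) or 19.4 and 19.3 (null PD), Pcna at 367 and 378 (WT PD) or 218 and 126 (null PD).

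From LZ to PD in WT, the transcripts of the helicase core fell almost to the floor, apart from Mcm6 and Mcm7. The mean FPKM in WT PD was 1.28% of that in WT LZ for Mcm2, 1.74% for Mcm4, 2.11% for Mcm5, 2.71% for Mcm3, 11.4% for Mcm6 and 57.3% for Mcm7. All 6 were called lower in WT PD, while 36.2% of all tested genes were called lower and 21.6% higher, and Mcm7 alone changed direction under a scaling, to a log2 change of 0.094 when the medians of the libraries were made equal (rescaling). The log2 change was -5.00 for Mcm2 (SE 0.21, limma adjusted p = 1.7e-05) and between -4.60 and -4.59 for Mcm3, Mcm4 and Mcm5. It was -3.00 for Mcm6 (SE 0.19, limma adjusted p = 3.1e-05) and -0.78 for Mcm7 (SE 0.24, limma adjusted p = 0.0255). The median over all genes was -0.32, and the 3436 genes called higher and 5754 lower turned to 5170 and 4274 after rescaling. Without WT LZ replicate 1, WT PD replicate 1 or WT PD replicate 2, Mcm7 lost its call, with limma adjusted p of 0.150, 0.0879 and 0.122.

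In Cnot4-null PD the transcripts of Mcm2 to Mcm5 were far above WT PD and still below LZ, while the gap was smaller for Mcm6 and Mcm7. The ratio of the Cnot4-null PD mean to the WT PD mean was 28.9 for Mcm2, 15.3 for Mcm4, 14.0 for Mcm5, 11.3 for Mcm3, 2.51 for Mcm6 and 1.54 for Mcm7. Of the 6, Mcm2 to Mcm6 were called higher, beside 41.6% of all tested genes called higher and 11.5% lower, and after rescaling to the same median Mcm6 turned to -0.11 and Mcm7 to -0.82. The log2 change was 3.62 for Mcm2 (SE 0.21, limma adjusted p = 0.000108), 2.94 for Mcm3 (SE 0.19), 2.91 for Mcm5 (SE 0.23) and 2.78 for Mcm4 (SE 0.23). Mcm6 had 1.23 (SE 0.19, limma adjusted p = 0.00226), and Mcm7, with 0.59 (SE 0.24, limma adjusted p = 0.0714), was not called. With a replicate block Mcm7 was called higher (limma adjusted p = 0.0452).

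Most genes of the table moved upward in this comparison. The median log2 change over all 15899 genes was 0.66, and it became -0.10 after quantile normalization and -0.21 after rescaling. Relative to that median of 0.66, the change was 2.95 for Mcm2, 2.27 for Mcm3, 2.25 for Mcm5, 2.12 for Mcm4, 0.57 for Mcm6 and -0.073 for Mcm7. Mcm2, Mcm3, Mcm4 and Mcm5 were called higher under each alternative processing, with log2 changes of 2.67 to 4.69 for Mcm2, 1.78 to 3.43 for Mcm3, 1.67 to 3.78 for Mcm4 and 1.88 to 3.67 for Mcm5. Mcm7 was called higher without Cnot4-null PD replicate 2, at 0.85 (limma adjusted p = 0.0238), and after quantile normalization, at 0.57 (limma adjusted p = 0.0411), and it was called lower after rescaling (limma adjusted p = 0.0231). The 7 premeiotic genes, the spermatid genes and the Leydig cell genes were higher in the same libraries, at the sums given above, and their part in the levels of the core genes was not tested. The comparison between stages in WT and that between genotypes at PD share the WT PD libraries, so the low values there enter both.

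The fall of Mcm2 to Mcm6 from LZ to PD was smaller in Cnot4-null cells. The mean of Cnot4-null PD was 38.7% of that of Cnot4-null LZ for Mcm2, 32.3% for Mcm6, 32.2% for Mcm4, 29.2% for Mcm5, 28.3% for Mcm3 and 80.3% for Mcm7. Mcm2 to Mcm6 were called lower, with log2 changes from -1.78 for Mcm3 (SE 0.19, limma adjusted p = 0.000625) to -1.33 for Mcm2 (SE 0.21, limma adjusted p = 0.00259), while 18.2% of all tested genes were called lower and 27.8% higher. Over all genes the 4423 higher and 2893 lower turned to 2974 and 4986 after quantile normalization and to 3332 and 5180 after rescaling. Mcm7 was not called at -0.34 (limma adjusted p = 0.276), and it was called after rescaling at -0.92 (limma adjusted p = 0.0177).

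The difference between the genotype effects at PD and at LZ was tested by the interaction. It was 3.67 for Mcm2 (SE 0.30, limma adjusted p = 0.00101), 3.04 for Mcm4 (SE 0.33), 2.88 for Mcm5 (SE 0.33), 2.82 for Mcm3 (SE 0.27) and 1.42 for Mcm6 (SE 0.28, limma adjusted p = 0.0106), on the log2 scale. These 5 of the 6 were called higher, beside 26% of all tested genes called higher and 3.97% lower, and Mcm7 was not called at 0.44 (limma adjusted p = 0.339), with -1.01 after rescaling. The split over all genes, 4139 higher and 631 lower, turned to 1548 and 1966 after quantile normalization and to 2177 and 5129 after rescaling. Mcm6 lost its call without WT PD replicate 2 (limma adjusted p = 0.0582) and after rescaling, at 0.037 (limma adjusted p = 0.917). The median over all genes was 0.64.

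**Figure D3:**
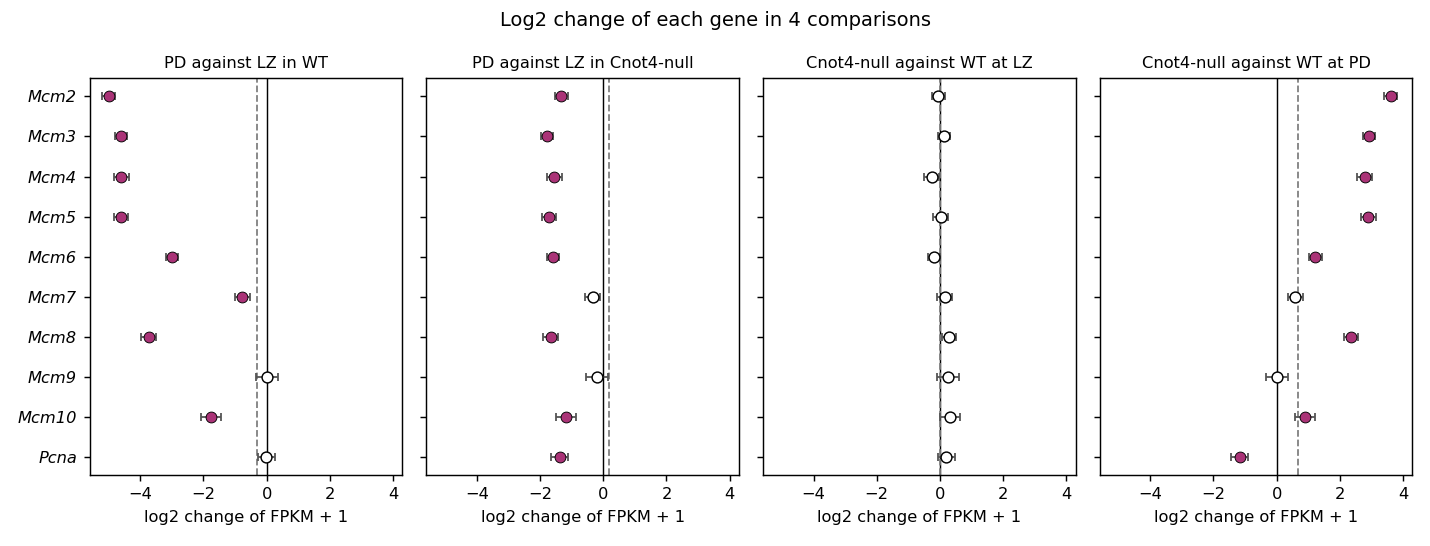
Log2 change of FPKM + 1 of each gene in 4 comparisons, with SE bars; filled points were called by limma, open points were not, and the dashed line is the median of all genes. In Cnot4-null against WT at PD the points of Mcm2 to Mcm5 and Mcm8 lie between 2.36 and 3.62, while Mcm6, Mcm7 and Mcm10 turned below 0 after rescaling to the same median, and Mcm10 also after quantile normalization.

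The proportions of the 6 core genes also differed between the groups. Their summed FPKM was 370 and 346 (WT LZ), 364 and 342 (null LZ), 55.1 and 52.6 (WT PD), 162 and 139 (null PD). The share of Mcm7 in that sum was 19.7% ± 2.95 (WT LZ), 22.1% ± 0.191 (null LZ), 75.5% ± 1.15 (WT PD) and 41.3% ± 6.31 (null PD), as mean ± SD of 2 libraries. Mcm2, which made up 14.6% ± 1.68 of WT LZ and 14.2% ± 0.317 of Cnot4-null LZ, made up 1.25% ± 0.422 of WT PD and 13.0% ± 1.37 of Cnot4-null PD. A ring holds its 6 subunits in equal numbers, and at LZ the most abundant of the 6 transcripts was 1.77 to 2.58 times the least abundant. That ratio reached 79.9 and 48.1 (WT PD) or 7.89 and 4.26 (null PD), so Cnot4-null PD lay between LZ and WT PD. The share of Mcm6 differed less and did not overlap between groups, at 22.1% ± 0.109 (WT LZ), 19.7% ± 1.85 (null LZ), 16.7% ± 0.183 (WT PD) and 15.0% ± 0.141 (null PD). These shares are of summed transcript levels within a library, which a factor applied to a whole library does not change and quantile normalization can, and they say nothing of the proteins.

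**Figure D4:**
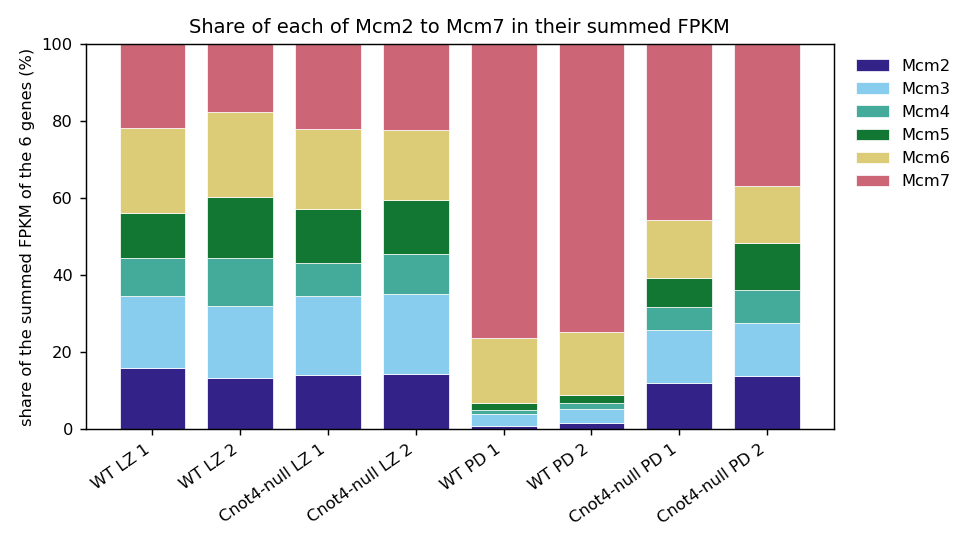
Share of each of Mcm2 to Mcm7 in their summed FPKM, in percent, for each of the 8 libraries. Mcm7 makes up on average 19.7% in WT LZ, 75.5% in WT PD and 41.3% in Cnot4-null PD.

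Mcm10, at mm9 chr2:4910760-4933837 on the minus strand, encodes the factor that acts on the loaded ring when forks are set up. It was measured at 8.79 and 5.72 FPKM (WT LZ), 7.84 and 10.8 (null LZ), 1.13 and 1.75 (WT PD), 2.97 and 4.19 (null PD). The PD groups did not overlap, as in 81.3% of all genes, the LZ groups did, and all levels were well below those of the core at LZ. In WT, the PD mean was 19.8% of the LZ mean, with a log2 change of -1.75 (SE 0.32, limma adjusted p = 0.00241), and it was called lower under all alternatives. In Cnot4-null cells the PD mean was 38.4% of the LZ mean (log2 change -1.17, SE 0.32, limma adjusted p = 0.0208), and the call was lost without Cnot4-null LZ replicate 2 (limma adjusted p = 0.116) or Cnot4-null PD replicate 1 (limma adjusted p = 0.0841), and with only the Cnot4-null libraries in the fit (limma adjusted p = 0.0757).

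Between genotypes at PD, Mcm10 was 2.49-fold higher in mean in Cnot4-null, with a log2 change of 0.91 (SE 0.32, limma adjusted p = 0.0454) that turned to -0.56 after quantile normalization and to -0.081 after rescaling. The call did not hold in 6 of the 8 fits with a library left out. It was lost without Cnot4-null LZ replicate 1 (limma adjusted p = 0.0618) or replicate 2 (0.0623), without WT PD replicate 1 (0.232) or replicate 2 (0.105), and without Cnot4-null PD replicate 1 (0.0516) or replicate 2 (0.172). It was also lost with no filter (limma adjusted p = 0.0665) and with a mean FPKM of at least 5 (0.0579). The same held with only the PD libraries in the fit (0.0769) and with a replicate block (0.0596). Relative to the median of all genes the change was 0.25, and the interaction was 0.58 (SE 0.45, limma adjusted p = 0.347), not called.

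Mcm8 and Mcm9 encode the helicase pair of homologous recombination. Mcm8 lies at mm9 chr2:132641877-132669933 on the plus strand, and was measured at 34.2 and 30.7 FPKM (WT LZ), 45.9 and 34.7 (null LZ), 1.80 and 1.26 (WT PD), 11.9 and 11.9 (null PD). Like the core genes it was highest at LZ, intermediate in Cnot4-null PD and lowest in WT PD, without overlap between the PD groups or between the stages. Of all genes, 81.3% did not overlap between the PD groups, 81.2% between the stages in WT and 71.4% between the stages in Cnot4-null. Its WT PD mean was 4.71% of WT LZ, a log2 change of -3.73 (SE 0.23, limma adjusted p = 2.7e-05). Cnot4-null PD was 7.78-fold above WT PD in mean (log2 change 2.36, SE 0.23, limma adjusted p = 0.000355), or 1.70 above the median gene, and the call held in each alternative, from 1.24 to 2.90. In Cnot4-null cells the PD mean was 29.5% of the LZ mean (log2 change -1.67, limma adjusted p = 0.00156). The interaction was 2.07 (SE 0.33, limma adjusted p = 0.00518), and it was not called after quantile normalization, at 0.93 (limma adjusted p = 0.0645).

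Mcm9, at mm9 chr10:53256135-53350245 on the minus strand, was near the filter in all groups. It stood at 0.678 and 1.28 FPKM (WT LZ), 0.861 and 1.89 (null LZ), 0.942 and 1.02 (WT PD), 0.634 and 1.49 (null PD). All 4 groups overlapped, and within each group except WT PD the duplicates differed by more than the group means did. The genotypes differed by a log2 change of 0.026 at PD (SE 0.35, limma adjusted p = 0.958), with -1.35 and a call after quantile normalization (limma adjusted p = 0.0129) and -0.73 without a call after rescaling. The stages differed by 0.018 in WT (limma adjusted p = 0.993) and by -0.20 in Cnot4-null (limma adjusted p = 0.661), the last being called lower at -0.96 after quantile normalization (limma adjusted p = 0.0369). The interaction was -0.22 (SE 0.49, limma adjusted p = 0.750), and it was called only after quantile normalization, at -1.60 (limma adjusted p = 0.0412). The levels of the 2 partners thus differed in order of magnitude at LZ and were close to each other in WT PD, at means of 1.53 for Mcm8 and 0.983 for Mcm9. Mcmdc2, an MCM-like gene needed for meiotic recombination and listed under the symbol 6030422M02Rik, was at 7.42 and 6.58 (WT LZ), 8.36 and 7.89 (null LZ), 3.38 and 4.74 (WT PD), 7.66 and 9.90 (null PD). It was called higher in Cnot4-null PD at 0.95 (SE 0.25, limma adjusted p = 0.0170), with -0.15 after quantile normalization and -0.28 after rescaling, and it lost the call without WT PD replicate 1 (limma adjusted p = 0.133), WT PD replicate 2 (0.0536) or Cnot4-null PD replicate 2 (0.0538), and with only the PD libraries in the fit (0.0627).

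Pcna went the other way. The gene lies at mm9 chr2:132074898-132079050 on the minus strand, and its level was 373 and 380 FPKM (WT LZ), 463 and 405 (null LZ), 367 and 378 (WT PD), 218 and 126 (null PD). The level was the same within the spread of the duplicates in WT LZ and WT PD, slightly higher in both Cnot4-null LZ libraries, and lowest in both Cnot4-null PD libraries. It was the most abundant of the 10 genes in all 8 libraries. In WT, the PD mean was 99.1% of the LZ mean, with a log2 change of -0.013 (SE 0.27, limma adjusted p = 0.994), but it was called lower at -0.55 after quantile normalization (limma adjusted p = 0.00731) and higher at 0.87 after rescaling (limma adjusted p = 0.0283).

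In Cnot4-null PD, Pcna stood at 46.1% of the WT PD mean, a log2 change of -1.16 (SE 0.27, limma adjusted p = 0.0102) and of -1.83 relative to the median of all genes. The change was negative under each alternative, from -2.60 after rescaling to -0.77 without Cnot4-null PD replicate 2. It was not called without WT PD replicate 1 (limma adjusted p = 0.0593) or WT PD replicate 2 (0.0656), nor with only the PD libraries in the fit (0.0688). Between the stages in Cnot4-null the PD mean was 39.6% of the LZ mean (log2 change -1.38, SE 0.27, limma adjusted p = 0.00567), and with only the Cnot4-null libraries in the fit the limma adjusted p was 0.0520.

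The interaction for Pcna was -1.37 (SE 0.38, limma adjusted p = 0.0343), opposite in sign to that of the helicase core. The call was lost without WT LZ replicate 1 (limma adjusted p = 0.107) or replicate 2 (0.0922), Cnot4-null LZ replicate 1 (0.114) or replicate 2 (0.0872), and WT PD replicate 1 (0.109) or replicate 2 (0.120). It was kept without Cnot4-null PD replicate 1 (0.00263) or replicate 2 (0.0151). The ratio of Pcna to the mean of the 6 core genes, which a factor applied to a whole library does not change, was 6.05 and 6.58 (WT LZ), 7.61 and 7.11 (null LZ), 40.0 and 43.2 (WT PD), 8.06 and 5.47 (null PD). WT PD stood apart from the other 3 groups in this ratio, and Cnot4-null PD overlapped with LZ. The summed markers of pachytene and diplotene were also lower in Cnot4-null PD than in WT PD, as was the mean of each of the 7 genes. Of these 7 genes, 2 were called lower, beside 11.5% of all genes, and their part in the level of Pcna was not tested.

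Over all 10 genes, 8 were called lower and 0 higher from LZ to PD in WT, beside 36.2% and 21.6% of all genes, and 1 of these, Mcm7, turned direction after rescaling. In Cnot4-null the count was also 8 lower and 0 higher, beside 18.2% and 27.8% of all genes, with Pcna in place of Mcm7. Cnot4-null PD against WT PD had 7 called higher, 1 lower and 2 not called, beside 41.6% and 11.5% of all genes, with Mcm6 and Mcm10 among the 7 turning below 0 after rescaling, and the median of the 10 log2 changes was 1.79 against 0.66 for all genes. With only the PD libraries in the fit there were 6 called higher and 0 lower, since Mcm10 and Pcna lost their calls. The interaction called 6 of the 10 higher and 1 lower, beside 26% and 3.97% of all genes.

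At LZ the genotypes did not differ by the test in any of the 10 genes. The log2 change of Cnot4-null against WT ranged from -0.26 for Mcm4 to 0.33 for Mcm10, the lowest limma adjusted p was 0.952, and 0 of 10 had an unadjusted p under 0.05. Of all tested genes 0.0692% were called higher and 0.0252% lower by limma at LZ, 15 genes in all, while 1013 had an unadjusted p under 0.05. At LZ the libraries of Mcm3, Mcm8 and Pcna were higher in Cnot4-null without overlap, and those of Mcm4 and Mcm6 lower, by at most 1.24-fold in mean, and 36.1% of all genes did not overlap between the genotypes at LZ either.

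The other genes of DNA replication were read from 7 lists of 73 genes, of which 72 were listed and passed the filter, while Hrob was not found under its symbol. From LZ to PD in WT, 49 of the 72 were called lower and 4 higher (36.2% and 21.6% of all genes), with a median log2 change of -1.86 against -0.32 for all genes. The split was 51 lower and 3 higher after quantile normalization and 40 lower and 10 higher after rescaling. From LZ to PD in Cnot4-null, 45 were called lower and 3 higher (18.2% and 27.8% of all genes), with a median of -1.06 against 0.19 for all genes. Cnot4-null PD against WT PD gave 38 called higher and 7 lower (41.6% and 11.5% of all genes), with a median of 0.81 against 0.66 for all genes, and this split was 16 and 15 after quantile normalization and 22 and 33 after rescaling. The replication genes as a whole thus moved little more than the median gene between the genotypes at PD. Their 45 calls became 29 without WT PD replicate 1 and 26 without WT PD replicate 2. At LZ limma called 0 of 72. The interaction called 24 higher and 4 lower (26% and 3.97% of all genes), a split that became 10 and 6 after quantile normalization and 14 and 25 after rescaling. It called 16, 16 and 13 in all without Cnot4-null LZ replicate 2, WT PD replicate 1 and WT PD replicate 2.

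**Figure D5:**
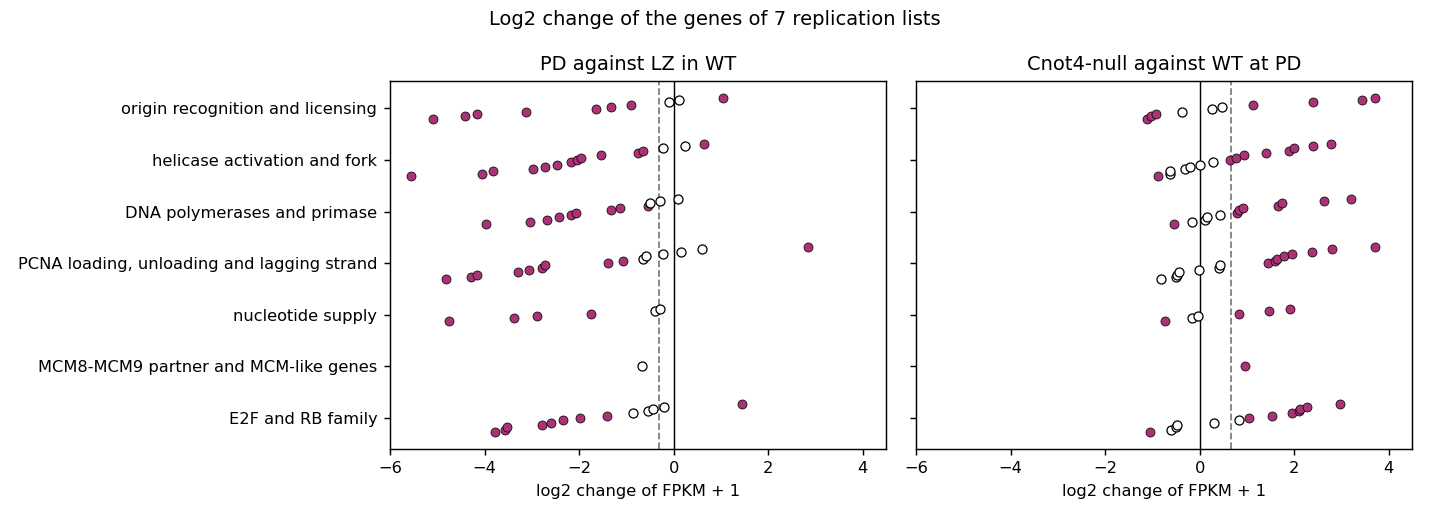
Log2 change of FPKM + 1 of each gene of the 7 replication lists in WT PD against WT LZ and in Cnot4-null PD against WT PD; filled points were called by limma, open points were not, and the dashed line is the median of all genes. In WT 49 of 72 were called lower, and at PD 38 were called higher in Cnot4-null, a split of 38 and 7 that became 16 and 15 after quantile normalization and 22 and 33 after rescaling.

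Origin recognition and licensing came closest to the helicase core in function, since many of these proteins, though not all, take part in loading the ring. In WT 7 of the 10 genes were called lower and 1 higher from LZ to PD (36.2% and 21.6% of all genes), and at PD 4 were called higher and 3 lower in Cnot4-null (41.6% and 11.5% of all genes). Mcmbp, which binds the MCM proteins, had mean levels of 57.4 FPKM in WT LZ, 0.719 in WT PD and 21.5 in Cnot4-null PD, a log2 change of -5.09 between the stages in WT and of 3.71 between the genotypes at PD (SE 0.21, limma adjusted p = 0.000108). Cdt1, the loading factor, rose from a mean of 0.749 in WT PD to 17.9 in Cnot4-null PD (log2 change 3.43, SE 0.27, limma adjusted p = 0.000211), and Orc1 fell from 27.7 to 0.353 between the stages in WT (log2 change -4.41). In the same list Orc5 rose from 20 to 42.2 from LZ to PD in WT (log2 change 1.05, limma adjusted p = 0.00446) and was lower in Cnot4-null PD, at 19.1 (log2 change -1.12, limma adjusted p = 0.00509), and Orc3 was lower there at 8.89 against 19.0 (log2 change -1.02, limma adjusted p = 0.00476). Subunits of the same origin recognition complex were thus called in opposite directions between the stages in WT.

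Helicase activation and the fork followed. In WT 12 of 15 genes were called lower and 1 higher from LZ to PD (36.2% and 21.6% of all genes), and at PD 8 were called higher and 1 lower in Cnot4-null (41.6% and 11.5% of all genes). Tipin, of the fork protection complex, went from a mean of 459 FPKM in WT LZ to 8.72 in WT PD (log2 change -5.55, limma adjusted p = 1.7e-05) and stood at 65.9 in Cnot4-null PD (log2 change against WT PD 2.77, SE 0.23, limma adjusted p = 0.000242). Wdhd1, which links polymerase and helicase, had a log2 change of -4.06 in WT between the stages, and Clspn, of fork signalling, of 2.39 between the genotypes at PD. Gins1, a subunit of the active helicase complex, rose in WT from 63.6 to 100.3 (log2 change 0.65, limma adjusted p = 0.0383) and was lower at 54.9 in Cnot4-null PD (log2 change -0.88, limma adjusted p = 0.0147). The rise of Gins1 in WT was not called without WT LZ replicate 1 (0.0931), WT LZ replicate 2 (0.149), WT PD replicate 1 (0.127) or WT PD replicate 2 (0.149), nor after quantile normalization (0.105), and its decrease in Cnot4-null PD not without WT PD replicate 1 (0.0743) or replicate 2 (0.0837) or with only the PD libraries in the fit (0.0533), all as limma adjusted p.

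For the DNA polymerases and primase, 9 of 12 genes were called lower and 0 higher in WT from LZ to PD (36.2% and 21.6% of all genes), and 7 higher and 1 lower in Cnot4-null PD (41.6% and 11.5% of all genes). Pold1, the catalytic subunit of polymerase delta, had means of 34.8 FPKM in WT LZ, 1.25 in WT PD and 13.1 in Cnot4-null PD, a log2 change of -3.97 between stages in WT and of 2.64 between genotypes at PD (SE 0.29, limma adjusted p = 0.000553). Pole2, of polymerase epsilon, changed by -3.03 in WT between the stages. Pold4, a small subunit of polymerase delta, differed from the rest, since it was low at LZ too. It was measured at 0.439 and 1.66 (WT LZ), 1.41 and 0.415 (null LZ), 0.903 and 0 (WT PD), 11.2 and 12.3 (null PD), and was called higher in Cnot4-null PD at 3.20 (SE 0.46, limma adjusted p = 0.00154). Prim2, of primase, was lower at 24.5 against 35.9 (log2 change -0.54, limma adjusted p = 0.0444), a call lost without WT LZ replicate 1 (0.0509), Cnot4-null LZ replicate 1 (0.0588) or replicate 2 (0.0591), WT PD replicate 1 (0.146) or replicate 2 (0.174), or Cnot4-null PD replicate 2 (0.0700), and with only the PD libraries in the fit (0.0702).

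The genes that load and unload PCNA or finish the lagging strand had 9 of 15 called lower and 1 higher in WT from LZ to PD (36.2% and 21.6% of all genes), and 8 higher and 0 lower in Cnot4-null PD (41.6% and 11.5% of all genes). Fen1, the flap nuclease that works on PCNA, had means of 43.0 FPKM in WT LZ, 0.541 in WT PD and 19.1 in Cnot4-null PD, log2 changes of -4.82 in WT and of 3.71 at PD (SE 0.26, limma adjusted p = 0.000156). Atad5, of the PCNA unloader, changed by -4.29 between the stages in WT, to a mean of 0.177. The subunits of RNase H2, which removes RNA from DNA, did not move together. From LZ to PD in WT, Rnaseh2a rose from 33.7 to 247 (log2 change 2.84, limma adjusted p = 0.000524), whereas Rnaseh2b fell from 103 to 4.81 (log2 change -4.17, limma adjusted p = 1.7e-05). At PD Rnaseh2b was higher in Cnot4-null, at 39.6 (log2 change 2.81, limma adjusted p = 0.000163), and Rnaseh2a was not called at -0.82 (limma adjusted p = 0.103). Several genes of this list and Pcna itself, whose products meet at the fork, were thus called in opposite directions at PD.

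Of the 6 genes of nucleotide supply, 4 were called lower and 0 higher in WT from LZ to PD (36.2% and 21.6% of all genes), and 3 higher and 1 lower in Cnot4-null PD (41.6% and 11.5% of all genes). Tk1, the thymidine kinase of S phase, went from a mean of 27.5 FPKM in WT LZ to 0.055 in WT PD (log2 change -4.75) and stood at 3.10 in Cnot4-null PD (log2 change against WT PD 1.90, SE 0.32, limma adjusted p = 0.00284), with a limma adjusted p of 0.0939 after quantile normalization. Dut was lower in Cnot4-null PD, at 54.3 against 89.6 (log2 change -0.73, limma adjusted p = 0.0307), and this call was lost without WT LZ replicate 1 (0.0531) or replicate 2 (0.0523), WT PD replicate 1 (0.0969) or replicate 2 (0.150), or Cnot4-null PD replicate 2 (0.0992), with only the PD libraries in the fit (0.0728) and after quantile normalization (0.0620).

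The E2F and RB family, which controls S-phase transcription, had 8 of 13 genes called lower and 1 higher in WT from LZ to PD (36.2% and 21.6% of all genes), and 7 higher and 1 lower in Cnot4-null PD (41.6% and 11.5% of all genes). E2f1 was at a mean of 13.5 FPKM in WT LZ, 0.218 in WT PD and 8.59 in Cnot4-null PD, with log2 changes of -3.57 in WT and of 2.96 at PD (SE 0.26, limma adjusted p = 0.000254). E2f5 fell from 70.5 to 4.23 in WT (log2 change -3.77), and Tfdp2, a dimerization partner, was higher in Cnot4-null PD by 2.26 (limma adjusted p = 0.000672). E2f8, a repressor of the family, went the other way, with a rise from 1.83 to 6.60 in WT (log2 change 1.45, limma adjusted p = 0.0101) and a lower level of 2.68 in Cnot4-null PD (log2 change -1.05, limma adjusted p = 0.0423). The rise of E2f8 in WT lost its call without WT LZ replicate 1 (0.0655) or WT PD replicate 2 (0.0794), and its lower level in Cnot4-null PD without WT PD replicate 1 (0.120) or replicate 2 (0.202) or Cnot4-null PD replicate 1 (0.0741) or replicate 2 (0.160), with no filter (0.0651) and with a pseudocount of 0.1 (0.0704), all as limma adjusted p. The premeiotic markers were also higher in Cnot4-null PD, and their part in the levels of the genes of the 7 lists was not tested.

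The genes whose pattern over the 8 libraries was most like the mean of Mcm2 to Mcm7 were sought by Pearson correlation of log2(FPKM + 1) among 9339 genes with a mean FPKM of at least 5, the members left out. They were Timm17b, Wdr5, Snx5, Tpd52l2 and Plaa, all with r of 0.999 over 8 libraries. Timm17b, of the mitochondrial import channel, stood at 92.7 and 93.8 FPKM (WT LZ), 91.0 and 86.4 (null LZ), 2.50 and 2.45 (WT PD), 29.8 and 26.6 (null PD). Plaa, of ubiquitin metabolism, stood at 37.9 and 38.6, 38.7 and 35.1, 2.92 and 3.07, and 14.4 and 16.8 in the same order. None of these 5 is a gene of the replication lists. Among the genes closest to Mcm8 were 1200014J11Rik and Ssb, with r of 0.999 and 0.998. With Spearman's correlation 0 of the 5 were kept, the 5 at the top then being tied. The 8 points fall into their 4 groups, so these values describe the group pattern and carry no test.

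Among the members, the correlation with the mean of the other core genes over the 8 libraries was 0.999 for Mcm3, 0.994 for Mcm4, Mcm5 and Mcm8, 0.989 for Mcm2, 0.967 for Mcm6, 0.943 for Mcm10, 0.884 for Mcm7, 0.146 for Mcm9 and 0.123 for Pcna. Mcm8 followed the core as closely as the core genes followed each other, while Mcm9 and Pcna did not follow it. The libraries share the same groups and scaling, and these are descriptions of 8 points.

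The genes next to the members were looked up on mm9 by position, after the values of the members had been seen. Prkdc, which encodes a kinase of DNA end joining, starts 466 bases from the start of Mcm4 on the opposite strand and was measured at 8.30 and 8.53 FPKM (WT LZ), 7.36 and 8.66 (null LZ), 1.17 and 1.18 (WT PD), 4.37 and 8.03 (null PD). It fell in WT (log2 change -2.11, limma adjusted p = 0.000704) and was higher in Cnot4-null PD (1.68, limma adjusted p = 0.00372), a call lost after quantile normalization at 0.34 (limma adjusted p = 0.434) and after rescaling at 0.68 (limma adjusted p = 0.0774). Trmt6, of a tRNA methyltransferase, starts 86 bases from the start of Mcm8 on the opposite strand and stood at 68.4 and 61.2 (WT LZ), 57.1 and 49.8 (null LZ), 3.57 and 4.17 (WT PD), 26.7 and 21.5 (null PD). It fell in WT (log2 change -3.76) and was higher in Cnot4-null PD by 2.36 (SE 0.21, limma adjusted p = 0.000262). WT PD was lowest and Cnot4-null PD next, as in Mcm8. At LZ the genotypes stood in the opposite order to Mcm8, both without overlap, as in 36.1% of all genes.

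Mcm7 and Mcm9 share bases with other genes. Mcm7 overlaps by 421 bases with Ap4m1 and by 64 bases with Cops6, both on the opposite strand, and it holds Mir25, Mir93 and Mir106b. Ap4m1 stood at 8.75 and 11.5 FPKM (WT LZ), 8.36 and 7.10 (null LZ), 8.72 and 7.99 (WT PD), 11 and 11.1 (null PD). Cops6, of the COP9 signalosome, stood at 285 and 272, 256 and 257, 203 and 190, and 194 and 131 in the same order of groups. Asf1a, a histone chaperone gene, lies within Mcm9 on the opposite strand with 12253 bases shared, and was at 35.8 and 56.1, 54.7 and 55.9, 34.4 and 39.2, and 33.5 and 23.9. These overlaps are between whole gene spans, introns included, and the overlap of exons was not computed. The sources used here do not state whether strand was used in counting. Reads of exon bases that are shared, if any, therefore cannot be told apart between Mcm7 and its neighbours or between Mcm9 and Asf1a. By group mean, Cops6 and Asf1a were lowest in Cnot4-null PD, at 162 and 28.7, and Ap4m1 was lowest in Cnot4-null LZ, at 7.73. The part of reads from these neighbours in the levels of Mcm7 and Mcm9 was not tested.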

How the data were processed

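The authors sorted spermatocytes, trimmed the reads to 50 bases, mapped them to mm9 with TopHat 2.1.1 and, from those with a unique place, computed FPKM by Cufflinks 2.2.1 on UCSC gene models. The deposited FPKM are 1 value per gene symbol and library. The methods name Smart-Seq2 and the labels another preparation from total RNA, and it was not determined which was used.

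Genes above 1 FPKM in at least 1 library were kept. Values were taken as log2(FPKM + 1), and limma 3.58.1 in R 4.3.3 (eBayes with a trend) was fitted to all 8 libraries with 4 groups and 5 contrasts, with Benjamini-Hochberg adjustment in each. Tests were two-sided. For Cnot4-null against WT at PD the fit was tested on simulated data, with 200 of 15899 genes changed and 4 calls among the unchanged. So few changed genes make the adjustment stricter than in the real comparison, and the share recovered is not given for that reason. Tables were made in Python 3.11.15 with pandas 2.3.3, scipy 1.17.1 and numpy 2.4.6, and plots with matplotlib 3.10.9. The values hold no counts, so no counting error is given.

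The members and lists were chosen with earlier results of these data known. Named in the text are all members, Cnot4, up to 2 rises and 2 falls per replication list among called genes without overlap at PD and in WT, the 5 and 3 most similar genes, and the most abundant gene of each marker list with any marker at 0, apart from items that are not reported here. Outside this rule, the genes next to or overlapping the members were named by position, and Rnaseh2a at PD and Rnaseh2b in WT, Dmc1, Prdm9 and Spo11 after their values were seen. Older symbols were matched through the reference tables. Besides Mcmdc2, these were Ticrr (5730590G19Rik), Meiob (4930528F23Rik) and Adgre1 (Emr1), and the Sertoli cell gene Rhox5 was not found. Positions are from GENCODE vM1 and promoters from RefSeq.

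Alternatives were no filter, a mean FPKM of at least 5, a pseudocount of 0.1, quantile normalization, rescaling to the same median, only the libraries compared, a replicate block, and each library left out in turn.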

Additional observations from a re-analysis of the deposited data

Results flagged for a closer look

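In 7 of the 10 genes the effect of the genotype differed between the stages, by limma's test of the interaction on the log2 scale, positive where Cnot4-null exceeded WT by more at PD than at LZ. Of all tested genes, 26% were called higher and 3.97% lower in this test. The interaction was 3.67 for Mcm2, 3.04 for Mcm4, 2.88 for Mcm5, 2.82 for Mcm3, 2.07 for Mcm8 and 1.42 for Mcm6, with limma adjusted p from 0.00101 to 0.0106. For Pcna it was -1.37, with a limma adjusted p of 0.0343. The calls that depended on a library, on rescaling or on quantile normalization are those of Mcm6, Mcm8 and Pcna, with values in the report.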

How the results depend on the processing

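The number of members called ranged over all alternatives from 6 to 9 at PD between genotypes, 7 to 9 and 6 to 9 between stages in WT and in Cnot4-null, 5 to 7 for the interaction, and was 0 at LZ. Calls over all genes ranged from 4057 to 10100 at PD, 4 to 25 at LZ, 6717 to 10182 between stages in WT, 3955 to 8512 in Cnot4-null and 1656 to 7929 for the interaction. The share of PD calls that were higher was 78.3%, 41.0% after quantile normalization and 36.9% after rescaling. With 2 libraries a group, 1 left out leaves a lone sample that is assumed to vary like the other groups.

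Log2 changes that turned direction were, at PD between genotypes, Mcm9 with a pseudocount of 0.1 (-0.00031), quantile normalization of Mcm9 (-1.35), Mcm10 (-0.56) and Mcmdc2 (-0.15), and rescaling of Mcm6 (-0.11), Mcm7 (-0.82), Mcm9 (-0.73), Mcm10 (-0.081) and Mcmdc2 (-0.28). Between stages in WT, rescaling turned Mcm7 (0.094) and Pcna (0.87). In the interaction, quantile normalization turned Mcm10 (-0.93), and rescaling Mcm7 (-1.01) and Mcm10 (-0.45). Of the list genes, 28 were called in the interaction and 16 after quantile normalization. With each library left out in turn, values spanned 0 in Mcm9 at PD (-0.28 to 0.33), at LZ (-0.073 to 0.56), between stages in WT (-0.20 to 0.24) and Cnot4-null (-0.52 to 0.12) and in the interaction (-0.53 to 0.099), in Mcm2 (-0.22 to 0.11), Mcm5 (-0.14 to 0.19) and Mcm7 (-0.048 to 0.35) at LZ, and in Pcna between stages in WT (-0.034 to 0.0076). List genes called then ranged from 26 to 52 at PD and from 13 to 39 in the interaction. With Spearman's correlation 0 of the 5 most similar genes were kept. The cause of these changes was not tested.

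With a replicate block, 8298 genes were called at PD, and Mcm7 was called higher (limma adjusted p = 0.0452) while Mcm10 (0.0596) and Prim2 (0.0578) were not called. Nothing says what same-numbered libraries share, and their deviations from the group means correlated between -0.0651 and 0.194 over 15899 genes.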
